A study of Caenorhabditis elegans with 10 samples.

Results

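The genes described here are 33 genes of synaptic release and neurotransmission in Caenorhabditis elegans. They were chosen by name and not by their values, although earlier results of these data were known. All 33 were found among the 19177 genes of the 8 h table and the 21915 genes of the 24 h table. They were compared between GMC101 worms, which express full-length human Aβ1-42 in body wall muscle from the unc-54 promoter together with an intestinal mtl-2 GFP marker, and CL2122 control worms, which carry the empty unc-54 vector and the same mtl-2 GFP marker. The GMC101 and CL2122 worms had been grown at 20 °C and were moved to 25 °C for 8 h or 24 h, the shift used to induce Aβ toxicity in GMC101. The labels give a larval stage (L1) while the study's methods describe young adults, and the RNA came from whole worms. GEO lists 10 samples, 2 for each strain at 8 h and 3 for each strain at 24 h, but each deposited table holds 1 normalized count for each gene and strain. No value therefore has a replicate error, and every fold change sets 1 value against 1. The Aβ transgene is driven in muscle, while the genes described act mainly in neurons. Of the 33 genes, 5 lie on chromosome I, 5 on II, 8 on III, 4 on IV, 5 on V and 6 on X.

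At a chemical synapse, vesicles loaded with transmitter dock at the active zone and fuse with the membrane when calcium enters through voltage-gated channels. A core complex of syntaxin, synaptobrevin and SNAP proteins drives fusion, and priming factors, complexin and synaptotagmin set its timing. Kinesins carry vesicles along the axon, endocytosis returns vesicle membrane after release, and neuropeptides leave from dense-core vesicles after their precursors have been cut. Many of these genes in C. elegans were found as unc mutants, whose movement is uncoordinated.

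The recovered read totals were 20533034 in GMC101 and 22520669 in CL2122 at 8 h, and 25283085 in GMC101 and 24583097 in CL2122 at 24 h. Within a time, levels are given as normalized counts, scaled by the authors so that the strains of that table can be compared. A gene was tested where its mean over the strains was at least 10 normalized counts, which left out only nmr-1 at 8 h among the synaptic genes. A gene was called where it passed a 2-fold difference. The log2 fold change is GMC101 over CL2122 on the log2(normalized count + 0.5) scale, and its 95% interval (Clopper-Pearson) covers counting error only. A further call ran the exact test of edgeR on recovered reads, taking the biological coefficient of variation to be 0.2, with Benjamini-Hochberg adjustment over all genes, and it compares those libraries and not the conditions.

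Per kilobase of gene length (RPKM, a gene's reads scaled to its length and to its library's total), the 33 genes spanned a wide range of levels. The synaptobrevin gene snb-1, whose product is the vesicle protein of the fusion complex, was the most abundant in every column, at 202 RPKM in GMC101 and 212 RPKM in CL2122 at 8 h and at 279 RPKM in GMC101 and 308 RPKM in CL2122 at 24 h. The NMDA-type glutamate receptor gene nmr-1 was the least abundant, at 0.060 RPKM in GMC101 and 0.068 RPKM in CL2122 at 8 h and at 0.12 RPKM in GMC101 and 0.26 RPKM in CL2122 at 24 h. The median over the synaptic genes was 3.38 RPKM in GMC101 and 3.05 RPKM in CL2122 at 8 h, and 2.90 RPKM in GMC101 and 4.33 RPKM in CL2122 at 24 h. Over all genes tested the median at 24 h was 8.14 RPKM in GMC101 and 10.4 RPKM in CL2122. RPKM uses library totals and not the authors' scaling. With that scaling the median log2 fold change of the synaptic genes at 24 h was -0.07. The 5 genes with the most reads held 59.6% to 67.4% of all reads of the 33 genes. The release and processing genes snb-1, unc-57, egl-21, unc-11 and egl-3 thus stood far above the transmitter synthesis genes cat-2 and tph-1 and the glutamate receptor genes, whose values rest on few reads.

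**Figure D1:**
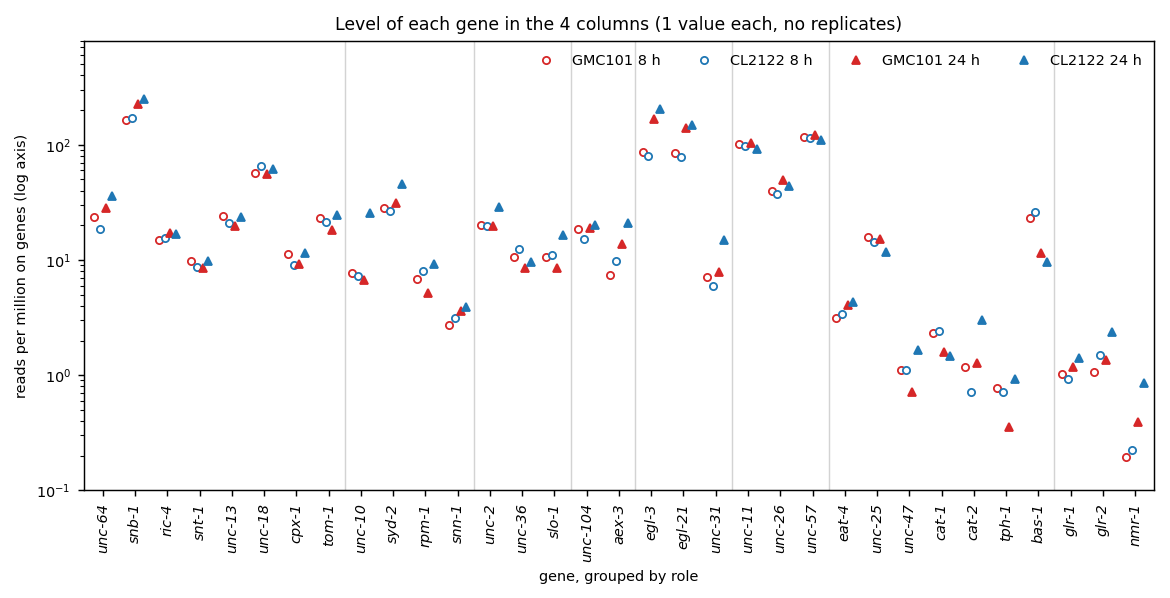
Level of each of the 33 synaptic genes in CPM (log axis) in GMC101 and CL2122 at 8 h and 24 h, ordered by role. CPM is a gene's reads scaled to its library's total and not to its length. There is 1 point for each deposited column and no error bar. In all 4 columns snb-1 is highest. In CPM nmr-1 is lowest except in GMC101 at 24 h, where tph-1 is lowest. Per kilobase of gene length (RPKM, not drawn) nmr-1 is lowest in all 4 columns. The widest gap between the strains is that of unc-10 at 24 h, at 6.64 CPM in GMC101 and 25.4 CPM in CL2122.

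After 8 h at 25 °C none of the 32 synaptic genes tested differed by 2-fold between GMC101 and CL2122. Of all genes tested at 8 h, 2.23% were at least 2-fold higher and 4.07% were at least 2-fold lower in GMC101. Among the synaptic genes 18 values were higher and 14 were lower in GMC101, and their median log2 fold change was 0.02, against 0.0045 over all genes tested. The exact test of edgeR, at an adjusted p under 0.05 and beyond 2-fold, called 0 of the 33, against 0.235% of all genes higher and 0.579% lower. At an unadjusted p under 0.05 it also called 0 of the 33, against 5.29% of all genes. Beyond 1.5-fold lay 1 synaptic gene, higher in GMC101, and none lower, against 6.94% of all genes higher and 9.25% lower. That gene was cat-2, the tyrosine hydroxylase gene of dopamine synthesis, at 24 reads in GMC101 and 16 reads in CL2122, and its log2 fold change of 0.67 had an interval of -0.29 to 1.69.

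The counting interval lay wholly above 0 for 4 and wholly below 0 for 5 of the 32 genes at 8 h, against 18.4% and 18.8% of all genes tested. The 4 with higher values were unc-64, cpx-1, unc-104 and egl-3. The syntaxin gene unc-64, the plasma membrane part of the fusion complex, had 506 normalized counts in GMC101, against 403 in CL2122, a log2 fold change of 0.33 with an interval of 0.14 to 0.52. The complexin gene cpx-1 had 240.2 normalized counts in GMC101, against 196 in CL2122. The vesicle kinesin gene unc-104 had 396 normalized counts in GMC101, against 331 in CL2122. The 5 with lower values all differed by less than 1.5-fold. Of these, aex-3, whose product activates the vesicle GTPase RAB-3, differed most, with 158 normalized counts in GMC101 and 213 in CL2122, a log2 fold change of -0.43 with an interval of -0.74 to -0.13. The syntaxin-binding gene unc-18 had 1214 normalized counts in GMC101, against 1413 in CL2122, and snb-1 had 3462 in GMC101 and 3719 in CL2122. The calcium channel α2δ subunit gene unc-36 had 226 normalized counts in GMC101, against 273 in CL2122. The aromatic amino acid decarboxylase gene bas-1, which acts in dopamine and serotonin synthesis, had 493 normalized counts in GMC101, against 562 in CL2122.

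The other genes of the release machinery at 8 h had intervals that included 0. Among them rpm-1 had a log2 fold change of -0.27 with an interval of -0.60 to 0.054. That of snn-1 was -0.22 with an interval of -0.76 to 0.31. The active zone gene unc-10 had 164 normalized counts in GMC101, against 158 in CL2122, a log2 fold change of 0.046 with an interval of -0.28 to 0.37. The synaptic vesicle calcium sensor gene snt-1 had 209 normalized counts in GMC101, against 190.3 in CL2122, and the priming factor gene unc-13 had 509 in GMC101 and 455 in CL2122. All 3 endocytosis genes were within 0.03 log2 units of 0, and unc-57, the most abundant of them, had 2494 normalized counts in GMC101, against 2507 in CL2122.

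Of the genes with the larger differences at 24 h, slo-1, unc-31, unc-47 and tph-1 differed by at most 1.17-fold at 8 h. The BK channel gene slo-1 had 226 normalized counts in GMC101 at 8 h, against 239.6 in CL2122, and unc-31 had 152 in GMC101 and 129 in CL2122. The GABA transporter gene unc-47 had 23.8 normalized counts in GMC101, against 24.1 in CL2122, and tph-1 had 16.6 in GMC101 and 15.5 in CL2122. All 4 intervals included 0. At these depths the interval of tph-1 ran from -0.995 to 1.19, and that of nmr-1, with 4 reads in GMC101 and 5 reads in CL2122, ran from -2.56 to 1.99, so that differences of up to about 2-fold in tph-1 and more in nmr-1 were not detectable.

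**Figure D2:**
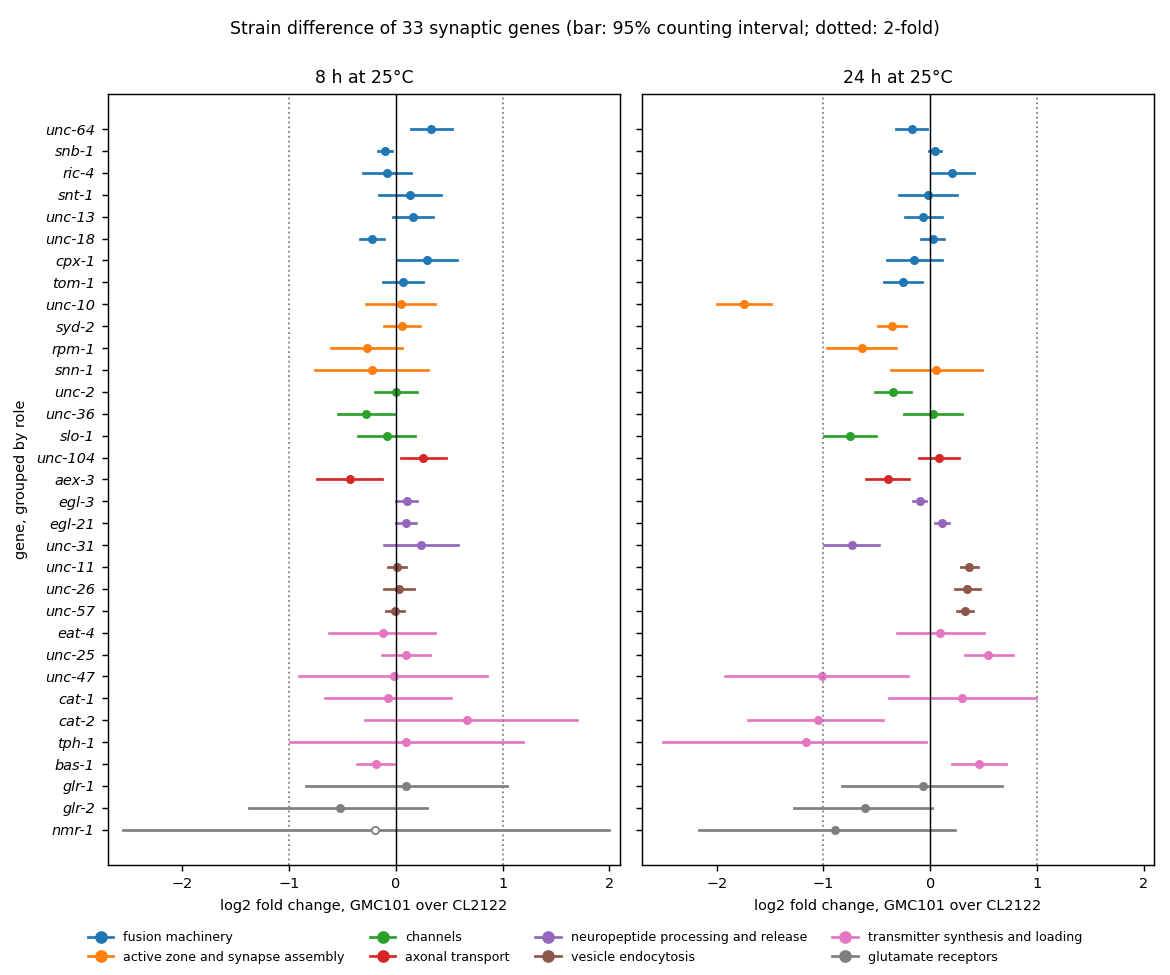
log2 fold change (GMC101 over CL2122) of each synaptic gene at 8 h and 24 h, grouped by role, with bars for the 95% counting interval, which leaves out the spread between replicates, and dotted lines at 2-fold. All 32 genes tested at 8 h lie within 2-fold, and at 24 h unc-10, cat-2, unc-47 and tph-1 lie below the lower line, with unc-10 at -1.74.

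After 24 h at 25 °C, 4 of the 33 synaptic genes were at least 2-fold lower in GMC101 than in CL2122 and 0 were at least 2-fold higher. Over all genes tested at 24 h, 12.2% were at least 2-fold lower and 9.19% were at least 2-fold higher, so the share of synaptic genes called lower was close to that of all genes. The 4 were unc-10, cat-2, unc-47 and tph-1. In 24 h worms 14 values were higher and 19 were lower in GMC101, and the median log2 fold change was -0.07, against -0.0004 over all genes tested. With total-count scaling in place of the authors' scaling the median of all genes moved by -0.19, and 7 synaptic genes were then higher and 26 lower. Relative to all genes the synaptic median stood at -0.07 under both scalings. The exact test of edgeR, at an adjusted p under 0.05 and beyond 2-fold, called 1 of the 33 genes (unc-10, lower) and none as higher, against 4.72% of all genes lower and 4.02% higher. Beyond 1.5-fold lay 9 synaptic genes with lower values and 0 with higher values, against 22.3% of all genes lower and 16.2% higher.

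The largest difference among the synaptic genes was at unc-10, which encodes the active zone scaffold RIM that ties vesicles to release sites and calcium channels. At 24 h unc-10 had 177 normalized counts in GMC101, against 592 in CL2122, from 168 reads in GMC101 and 624 reads in CL2122. The GMC101 value was 3.34-fold lower, a log2 fold change of -1.74 with an interval of -1.997 to -1.495, and the adjusted p of edgeR's exact test was 0.00215. That p depended on the assumed coefficient of variation, being 2.47e-11 at 0.1 and 0.765 at 0.4. The gene lies on the minus strand of chromosome X from 7272334 to 7280322 in the deposited coordinates, and its exons overlap those of no other annotated gene. Of its neighbours, chosen after the values were seen, lact-1 had a log2 fold change of 0.13, F46H5.2 of 0.07, lron-7 of 0.14 and K03A1.4 of -0.21 at 24 h.

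On the CPM scale, which divides a gene's reads by its library's total, unc-10 stood at 7.69 CPM in GMC101 and 7.28 CPM in CL2122 at 8 h, and at 6.64 CPM in GMC101 and 25.4 CPM in CL2122 at 24 h. Of the 4 columns, CL2122 at 24 h stood apart and the other 3 lay close to each other. The strain difference at 24 h less that at 8 h was -1.82 log2 units, and the likelihood ratio test of strain by time in edgeR (coefficient of variation 0.2) gave an adjusted p of 0.0839. No synaptic gene passed that test, which called 0.69% of all genes as more negative and 2.16% as more positive at 24 h. With the coefficient set to 0.1 it called unc-10 (adjusted p 1.3e-05, edgeR), cat-2 (0.0391) and unc-31 (0.0474), each more negative at 24 h, where 4.73% of all genes were called as more negative and 6.97% as more positive. The times are separate tables and the authors' own naming of the 8 h data calls it the second batch, and time and batch cannot be told apart.

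Of the other 3 active zone and synapse assembly genes, 2 had intervals below 0 at 24 h. The liprin gene syd-2, which organizes the active zone, had 837 normalized counts in GMC101, against 1073 in CL2122, a log2 fold change of -0.36 with an interval of -0.49 to -0.23. The ubiquitin ligase gene rpm-1, which limits synapse growth, had 137 normalized counts in GMC101, against 214 in CL2122, a log2 fold change of -0.64 with an interval of -0.96 to -0.32. Neither passed 2-fold. The synapsin gene snn-1 had 95.9 normalized counts in GMC101, against 92.1 in CL2122, a difference whose interval included 0 and whose sign turned with total-count scaling.

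Among the channel genes, the interval lay below 0 for slo-1 and unc-2 at 24 h. The gene slo-1 encodes the BK potassium channel that limits release, and it had 229 normalized counts in GMC101, against 384 in CL2122, a log2 fold change of -0.75 with an interval of -0.99 to -0.51. The presynaptic calcium channel gene unc-2 had 525 normalized counts in GMC101, against 669 in CL2122, a log2 fold change of -0.35. Its α2δ partner unc-36 had 229 normalized counts in GMC101, against 225 in CL2122, with an interval that included 0. No channel gene passed 2-fold, and the sign of unc-36 turned with total-count scaling.

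Of the axonal transport genes, aex-3 was the one gene among the 33 whose interval lay below 0 at both times. It had 369.8 normalized counts in GMC101, against 487 in CL2122 at 24 h, a log2 fold change of -0.40 with an interval of -0.60 to -0.20. The kinesin gene unc-104 had 500.4 normalized counts in GMC101, against 473 in CL2122, with an interval of -0.10 to 0.27 and a sign that turned with total-count scaling.

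The neuropeptide genes differed among themselves at 24 h. The gene unc-31 encodes CAPS, which readies dense-core vesicles for release, and it had 209.7 normalized counts in GMC101, against 349 in CL2122, a log2 fold change of -0.74 with an interval of -0.99 to -0.48. The proprotein convertase gene egl-3 had 4469 normalized counts in GMC101, against 4787 in CL2122, a log2 fold change of -0.099. The carboxypeptidase E gene egl-21, which trims peptides after egl-3 has cut them, had 3721 normalized counts in GMC101, against 3451 in CL2122, a log2 fold change of 0.11 that was -0.082 with total-count scaling. The precursor-processing enzymes were the abundant genes of the group and differed by less than 1.1-fold, while unc-31 differed by 1.66-fold.

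All 3 vesicle endocytosis genes had higher values in GMC101 at 24 h. The clathrin adaptor gene unc-11 had 2777 normalized counts in GMC101, against 2156 in CL2122, a log2 fold change of 0.37 with an interval of 0.28 to 0.45. The synaptojanin gene unc-26, whose product strips the clathrin coat, had 1307 normalized counts in GMC101, against 1028 in CL2122, a log2 fold change of 0.35 with an interval of 0.23 to 0.47. The endophilin gene unc-57, which recruits synaptojanin, had 3233 normalized counts in GMC101, against 2587 in CL2122, a log2 fold change of 0.32 with an interval of 0.25 to 0.40. These 3 folds lay between 1.25 and 1.29, none passed 2-fold, and the adjusted p of edgeR's exact test lay between 0.799 and 0.841. With total-count scaling the log2 fold changes were 0.17 for unc-11, 0.16 for unc-26 and 0.13 for unc-57, still above 0. The 10 other endocytosis genes of the wider list did not share this direction, with 3 higher and 7 lower in GMC101 and a median log2 fold change of -0.067, and the intervals of 4 of them lay below 0. Over all 33 genes at 24 h, the interval lay above 0 for 7 and below 0 for 13, against 34.7% and 32.2% of all genes tested.

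No gene of the fusion machinery passed 2-fold. At 24 h snb-1 had 5991 normalized counts in GMC101, against 5808 in CL2122, and unc-64 had 750.1 in GMC101 and 846 in CL2122, so that unc-64 was the lower in GMC101 at 24 h with a log2 fold change of -0.17 and the higher at 8 h. The SNAP protein gene ric-4 had 455 normalized counts in GMC101, against 394 in CL2122, a log2 fold change of 0.21 with an interval of 0.011 to 0.41. The tomosyn gene tom-1, an inhibitor of fusion complex assembly, had 486 normalized counts in GMC101, against 578 in CL2122, a log2 fold change of -0.25 with an interval of -0.43 to -0.074. The interval of snb-1 included 0, at -0.0075 to 0.097, and so did those of the other 4 genes. These were snt-1 (225 normalized counts in GMC101 and 229 in CL2122), unc-13 (529 in GMC101 and 553 in CL2122), unc-18 (1471 in GMC101 and 1447 in CL2122) and cpx-1 (243 in GMC101 and 269.6 in CL2122). None of the 8 fusion genes differed by 1.5-fold at either time, and the signs of snb-1 and unc-18 at 24 h turned with total-count scaling.

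The genes of transmitter synthesis and loading went both ways at 24 h. The glutamic acid decarboxylase gene unc-25, which makes GABA, had 404 normalized counts in GMC101, against 276 in CL2122, a log2 fold change of 0.55 with an interval of 0.32 to 0.77. The vesicular GABA transporter gene unc-47 was 2.02-fold lower in GMC101, at 18.97 normalized counts in GMC101, against 38.9 in CL2122, from 18 reads in GMC101 and 41 reads in CL2122. Both act in the GABA neurons, and their values differed in opposite directions, a difference that was not tested. The log2 fold change of unc-47 was -1.02 with an interval of -1.92 to -0.21.

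The monoamine genes showed the same mixture. The dopamine synthesis gene cat-2 was 2.07-fold lower in GMC101, at 33.7 normalized counts in GMC101, against 70.2 in CL2122, from 32 reads in GMC101 and 74 reads in CL2122, and its log2 fold change was -1.05 with an interval of -1.71 to -0.44. It was the only gene beside unc-10 with an unadjusted p under 0.05 in edgeR's exact test, a level that 18.2% of all genes reached, and its adjusted p was 0.264. The tryptophan hydroxylase gene tph-1, the first enzyme of serotonin synthesis, was 2.24-fold lower at 9.49 normalized counts in GMC101, against 21.8 in CL2122, from 9 reads in GMC101 and 23 reads in CL2122, with a log2 fold change of -1.16 and an interval of -2.50 to -0.038. The decarboxylase gene bas-1, which acts after both cat-2 and tph-1, had 306 normalized counts in GMC101, against 223 in CL2122, a log2 fold change of 0.45 with an interval of 0.20 to 0.71. The vesicular monoamine transporter gene cat-1 had 42.1 normalized counts in GMC101, against 34.2 in CL2122, and the vesicular glutamate transporter gene eat-4 had 109 in GMC101 and 102 in CL2122, both with intervals that included 0, and the sign of eat-4 turned with total-count scaling.

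Some of these genes share exon bases with other genes. Exons of tph-1 overlap those of ZK1290.10 on the opposite strand by 43 bases, and ZK1290.10 had 109.6 normalized counts in GMC101, against 179 in CL2122 at 24 h. Exons of eat-4 overlap those of ZK512.2 by 79 bases and of ZK512.7 by 40 bases, and ZK512.7 had 911 normalized counts in GMC101, against 336 in CL2122 at 24 h. Exons of nmr-1 overlap those of F07F6.1 by 19 bases. No source used here says that the counting kept strand, so reads in these bases cannot be assigned to 1 gene, and the values of tph-1, eat-4 and nmr-1 are uncertain to that extent. Exons of unc-64 share 64 bases with set-25, and syd-2, rpm-1, unc-2, unc-36, slo-1, unc-26, glr-1 and glr-2 also overlap a gene on the opposite strand. The exons of cat-2, unc-47 and unc-25 overlap none.

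All 3 glutamate receptor genes had lower values in GMC101 at 24 h, each with an interval that included 0. The AMPA-type subunit gene glr-1 had 31.6 normalized counts in GMC101, against 33.2 in CL2122, and its partner glr-2 had 35.8 in GMC101 and 55.05 in CL2122. The NMDA-type gene nmr-1 had 10.5 normalized counts in GMC101, against 19.9 in CL2122. At 10 reads in GMC101 and 21 reads in CL2122, the nmr-1 interval ran from -2.17 to 0.23, and no difference was detectable at this depth.

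Within each strain the 2 times were set side by side in CPM, without a test. In GMC101 the median synaptic gene differed by 0.03 log2 units between 24 h and 8 h, against 0.12 over 14125 genes tested at both times. In CL2122 the median synaptic gene was 0.38 log2 units higher at 24 h, against 0.25 over all genes. At 24 h 17 of 32 synaptic genes had higher values than at 8 h in GMC101, against 59.0% of all genes, and 25 of 32 did so in CL2122, against 62.3% of all genes. Of the 9 pan-neuronal markers 6 did so in GMC101 and 8 in CL2122. More than 2-fold higher at 24 h were 0 synaptic genes in GMC101, against 10.7% of all genes, and 5 in CL2122, against 20.1% of all genes, leaving out nmr-1. The CL2122 count was thus not above that of all genes. Of these 5, unc-10 was 3.49-fold higher at 24 h in CL2122, cat-2 4.24-fold, egl-3 2.59-fold, unc-31 2.52-fold and aex-3 2.13-fold.

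The values of egl-3 and bas-1 went the same way in both strains across time. The convertase gene egl-3 was at 87.0 CPM in GMC101 and 79.2 CPM in CL2122 at 8 h, and at 168 CPM in GMC101 and 205 CPM in CL2122 at 24 h. The decarboxylase gene bas-1 was at 23.2 CPM in GMC101 and 25.8 CPM in CL2122 at 8 h, and at 11.5 CPM in GMC101 and 9.56 CPM in CL2122 at 24 h. By contrast, unc-31 was at 7.16 CPM in GMC101 and 5.95 CPM in CL2122 at 8 h, and at 7.87 CPM in GMC101 and 14.97 CPM in CL2122 at 24 h, so that the CL2122 column at 24 h again stood apart. Summed over all 33 genes, the level was 927 CPM in GMC101 and 909 CPM in CL2122 at 8 h, and 1125 CPM in GMC101 and 1267 CPM in CL2122 at 24 h. In normalized counts the sums were 19699 in GMC101 and 19767 in CL2122 at 8 h, and 29967 in GMC101 and 29564 in CL2122 at 24 h. The direction of the summed strain difference thus depended on the scaling at both times. The strain difference at 8 h and that at 24 h had a Spearman correlation of -0.13 over 32 synaptic genes and of 0.20 over 14125 genes, given as a description, since genes share their libraries.

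Long genes had lower values in GMC101 at 24 h, among the synaptic genes and among all genes. Of the 9 synaptic genes of 4 kb or more, 2 were higher and 7 were lower in GMC101, with a median log2 fold change of -0.35. Over all genes of that length 225 were higher and 491 were lower, with a median of -0.25. Under 2 kb, the median was 0.05 over 14 synaptic genes and 0.04 over all genes. The long genes unc-10, unc-31, aex-3, unc-2 and rpm-1 all belong to the class of 4 kb or more, whereas cat-2, unc-47 and tph-1 are under 2 kb. The Spearman correlation of gene length with the strain difference at 24 h was -0.34 over the 33 synaptic genes and only -0.087 over all 16092 genes tested. Gene length therefore moved with the strain difference in the synaptic genes and, weakly, in all genes. Its part in the synaptic values was not tested.

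**Figure D3:**
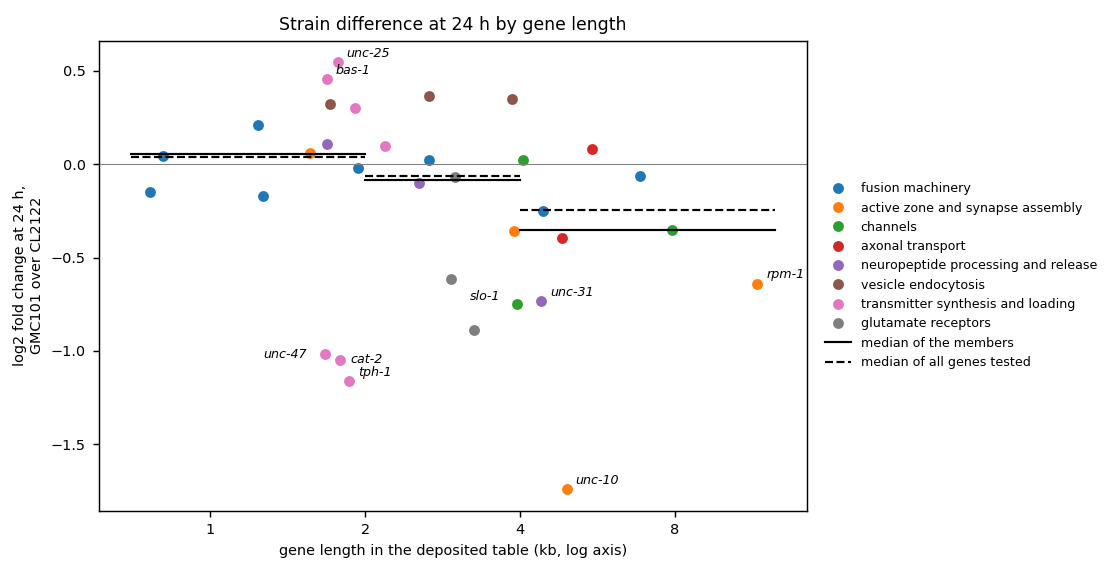
log2 fold change at 24 h (GMC101 over CL2122) of the 33 synaptic genes against gene length in kb (log axis), coloured by role, with 1 point for each gene and lines for the median of the synaptic genes and of all genes tested in 3 length classes. The synaptic medians follow those of all genes, and in the longest class they are -0.35 and -0.25, while unc-10 lies at -1.74.

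Markers of cell types show how the make-up of the RNA differed. The 9 pan-neuronal markers were all detected, and summed to 351 CPM in GMC101 and 334 CPM in CL2122 at 8 h, and to 399 CPM in GMC101 and 477 CPM in CL2122 at 24 h. Their median log2 fold change was 0.01 at 8 h and 0.006 at 24 h, with 5 higher and 4 lower in GMC101 at each time. The values at 24 h ran from -0.72 for unc-119 to 0.25 for rab-3, and none came near the -1.74 of unc-10. At 24 h all 12 body wall muscle markers were higher in GMC101 with the authors' scaling, 11 of them with intervals above 0, with a median log2 fold change of 1.21 and a sum of 4512 CPM in GMC101 and 2393 CPM in CL2122. Of the 17 oocyte and early embryo markers 16 were higher, with a sum of 14599 CPM in GMC101 and 10688 CPM in CL2122. The 12 sperm markers summed to 67.0 CPM in GMC101 and 15.7 CPM in CL2122 at 24 h. Of the 10 sperm markers tested, 8 were higher and 2 were lower in GMC101, the lower being spe-9 at -0.38 and fer-1 at -0.20 log2 units. The untested spe-38 and ssp-9 had 0 reads in CL2122 and low counts in GMC101. At 8 h the muscle markers summed to 7375 CPM in GMC101 and 9241 CPM in CL2122, and the sperm markers to 675 CPM in GMC101 and 546 CPM in CL2122. For hypodermis markers the median log2 fold change was -0.82 at 8 h, with 5 of 12 at least 2-fold lower in GMC101. At 24 h the median was -0.43, with 2 of the 10 tested higher and 8 lower in GMC101. Their sum at 24 h went the other way, at 827 CPM in GMC101 and 366 CPM in CL2122. Of that sum col-19 alone held 616 CPM in GMC101 and 58.9 CPM in CL2122. The intestine markers had a median of -0.01 at 8 h and 0.30 at 24 h. At 24 h 6 of the 11 intestine markers tested were higher and 5 lower in GMC101. The glia markers had a median of 0.029 over 4 genes tested at 8 h and of -0.19 over 6 at 24 h. The sums at 24 h went against these medians, at 4062 CPM in GMC101 and 4690 CPM in CL2122 for intestine. For glia they were 90.5 CPM in GMC101 and 74.2 CPM in CL2122. In whole worms fewer cells of a type and less RNA per cell cannot be told apart, and the part of these shifts in the synaptic values was not tested.

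A list of other genes of the same processes gave the wider picture. At 8 h 0 of the 133 genes tested passed 2-fold, and the median log2 fold change was 0.04 with 74 higher and 59 lower in GMC101. At 24 h 5 of 137 were at least 2-fold lower and 0 were at least 2-fold higher, and the median was -0.14 with 48 higher and 89 lower in GMC101. Both counts were below the 12.2% lower and 9.19% higher of all genes, since 5 of 137 is 3.65%. The monoamine and GABA receptors had 8 higher and 18 lower values, the glutamate receptors 4 higher and 14 lower, the active zone genes 3 higher and 10 lower, and the channels 3 higher and 10 lower. Vesicle fusion had 7 higher and 12 lower values, neuropeptide processing 2 higher and 6 lower, and vesicle endocytosis 3 higher and 7 lower. Axonal transport had 7 higher and 5 lower values, and transmitter synthesis and loading had 11 higher and 7 lower.

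Of the other genes, 2 passed both 2-fold and the exact test at 24 h, and both were lower in GMC101, a smaller share of the 137 than the 4.72% of all genes called lower. The serotonin receptor gene ser-1 had 72.7 normalized counts in GMC101, against 217 in CL2122, 2.98-fold lower with a log2 fold change of -1.57 and an adjusted p of 0.0119 in edgeR's exact test. The synaptotagmin family gene snt-6 had 280.2 normalized counts in GMC101, against 769 in CL2122, 2.74-fold lower with a log2 fold change of -1.45 and an adjusted p of 0.0131 in the same test. The other 3 past 2-fold, named after their values were seen, were stg-2 at -1.49, comt-1 at -1.20 and ccb-2 at -1.19 log2 units, all of low counts.

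**Figure D4:**
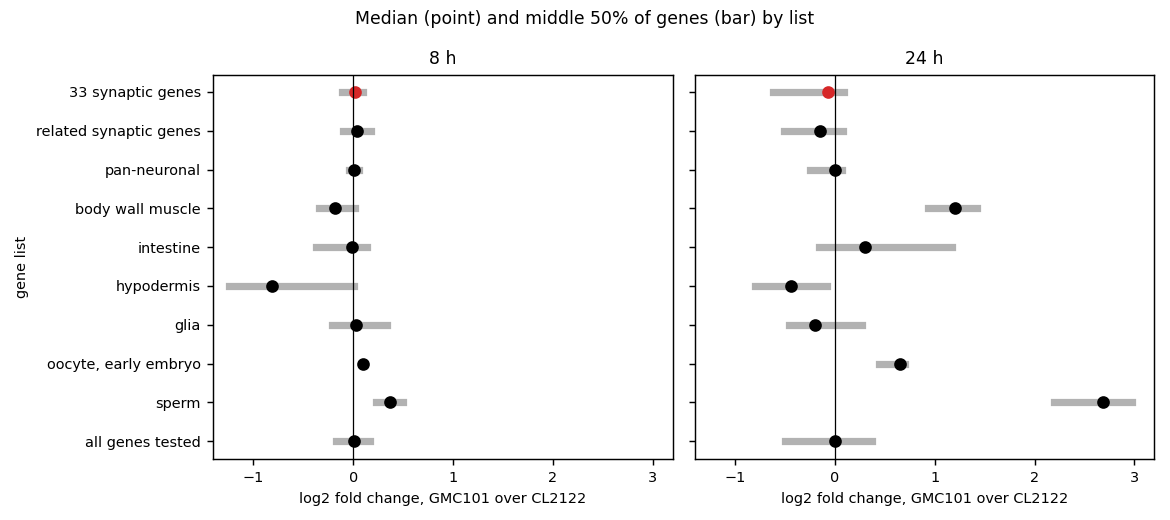
Median log2 fold change (GMC101 over CL2122) at 8 h and 24 h, with 1 point for each list and time. The lists are the synaptic genes as a whole, other genes of the same processes, the cell type markers and all genes tested. Bars run from the lower to the upper quartile of the genes in each list and are not error bars. The synaptic genes as a whole lie near 0 at both times, at 0.02 and -0.07, while the body wall muscle markers lie at 1.21 at 24 h.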

How the data were processed

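Worms of the GMC101 and CL2122 strains were sequenced as paired 150 bp reads, and the authors deposited 1 normalized count for each gene and strain at each time. Per the labels, HISAT2 2.05, StringTie 1.33 and DESeq2 were named in the submitters' processing notes. The gene counter and genome build are not given in the sources used here, nor is how the labelled samples were combined. The deposited values are a normalized signal, gene counts divided by TMM size factors, and whole reads were recovered for 100% of values in every column (tolerance 0.1). The deposited columns of fold changes and p-values were not used.

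Levels were computed from the recovered reads as CPM, scaled to library totals, and as RPKM, scaled also to gene length. Fold changes used a pseudocount of 0.5, and genes averaging under 10 normalized counts over the strains were left out. In edgeR 4.0.16 (R 4.3.3) an exact test and a likelihood ratio test were run taking the biological coefficient of variation to be 0.2 (dispersion 0.04) and Benjamini-Hochberg adjustment over all genes, since no replicate columns were there to estimate it. DESeq2 1.42.0 gave size factors for 1 alternative scaling. The design's replicate test could not be fitted for the same reason. Each test was tested on simulated data with 4-fold changes and the same coefficient of variation that the tests assumed. There the likelihood ratio test recovered fewer of the changed genes than the exact test and left most of them uncalled. Such data cannot show how the tests behave where the true spread differs from the assumed one. A gene with 3 reads stood at 0.119 to 0.146 CPM. Positions were checked against the WBcel235 annotation, in which all 33 genes overlapped their deposited position. All 33 genes were named, and of the other synaptic genes those past 2-fold that averaged 50 or more normalized counts, while stg-2, comt-1 and ccb-2, which averaged less, were named after their values were seen, as were the neighbours of unc-10. The genes and lists were chosen with earlier results of these data known. Alternatives were other scalings, filters, pseudocounts, fold thresholds and coefficients.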

Additional observations from a re-analysis of the deposited data

How the results depend on the processing

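The counting intervals leave out the spread between worms, and the calls of edgeR rest on an assumed coefficient of variation. Of the 33 genes, 4 were at least 2-fold lower at 24 h, which became 2 with a minimum mean of 50 normalized counts, 1 with a pseudocount of 5 and 9 with a 1.5-fold threshold. At 8 h the count of genes with higher values became 1 with a 1.5-fold threshold, against 0. The exact test at 24 h called 1 gene as lower, against 2 with a coefficient of 0.1 and 0 with a coefficient of 0.4. The strain by time test called 0 genes, against 3 with a coefficient of 0.1. unc-10 stayed past 2-fold under each of these settings that kept the 2-fold threshold, whereas cat-2, unc-47 and tph-1 did not. No called gene turned its direction, while at 24 h total-count scaling turned the sign of 7 uncalled genes (snb-1, unc-18, snn-1, unc-36, unc-104, egl-21 and eat-4). No paired analysis was possible because the columns carry no replicate numbers, and leaving out each replicate was not run for the same reason.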
